A study of Mus musculus with 106 samples.

Results

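The stem cell heptad is a group of transcription factors that bind together at regulatory DNA of blood stem and progenitor cells. Gata2, Tal1, Lmo2, Lyl1, Fli1 and Erg, 6 of the 21938 protein-coding genes in the annotation, were taken by name, and Runx1, the remaining factor of the heptad, is given below with the cofactors. Gata2 is a zinc finger factor that binds GATA sites, Tal1 and Lyl1 are related basic helix-loop-helix factors that bind E-boxes, Lmo2 is a LIM-domain protein that bridges these factors without binding DNA itself, and Fli1 and Erg are ETS-family factors. In blood stem cells these genes are known to regulate one another through enhancers upstream, downstream and inside introns. Acetylation of histone H3 at lysine 27 (H3K27ac) marks active promoters and enhancers, and trimethylation at lysine 4 (H3K4me3) marks promoters.

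Both marks were profiled by chromatin immunoprecipitation and sequencing (ChIP-seq) in cells of C57BL/6J mice. The mice were 12 to 14 weeks old when assigned to be controls or to be made diabetic. Diabetes was induced with streptozotocin, a toxin of insulin-producing cells (42 to 45 mg/kg on each of 5 days). Tissue was taken 6 weeks after the last injection from diabetic mice with non-fasted glucose above 13.9 mmol/L. The cells labelled HSC were bone marrow depleted of cells carrying CD3, CD4, B220, Ter119 or Gr1, so progenitors of several lineages remain among them. Bone marrow-derived macrophages (BMDM) were grown for 7 days in 5 mmol/L glucose and were left unstimulated or given lipopolysaccharide (LPS, 100 ng/mL) with interferon-γ (10 ng/mL). The study's general protocol stimulates for 16 hours, and its ChIP-seq methods state no time. Of 106 samples, 70 have a list of peaks, 35 for each mark: 12 HSC, 11 unstimulated BMDM and 12 stimulated BMDM, with 6 libraries in each disease group except 5 diabetic unstimulated BMDM. By the study's methods replicates are individual animals, while the labels number the libraries and name no animal.

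The lists held 51162 to 176559 H3K27ac peaks and 13730 to 277213 H3K4me3 peaks, and read depth is unknown. H3K4me3 lists of HSC were short, with group medians of 49624 peaks in control and 89111 in diabetic HSC against 96580 to 161118 in the BMDM groups, so lower H3K4me3 values in HSC go together with shorter lists. Among H3K27ac libraries, 53 regions that separated stimulated from unstimulated BMDM of diabetic mice were read in the 12 control BMDM libraries. The libraries labelled control unstimulated BMDM 5 and 6 and control LPS+IFN-γ BMDM 5 carried more regions of the other state than of their own, for example 18 of 26 stimulated and 5 of 27 unstimulated regions in unstimulated BMDM 5. Calls of the 6 genes between HSC and BMDM are given with and without these libraries, and calls of other genes as counts. In a bulk library, fewer cells that carry a mark and less of the mark in each cell cannot be told apart.

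Shown here, with binding motifs in capitals, are 3 stretches of sequence that lie in or beside places with more H3K27ac in HSC than in BMDM. GATAA, read on both strands (TTATC on the reverse strand), is the core of a GATA site, and CANNTG followed after 8 or 9 bases by GATAA is a composite of an E-box and a GATA site as bound by complexes of Tal1, Lmo2 and a GATA factor. The Gata2 stretch, chr6:88203095-88203294 (GRCm38, plus strand), lies in an intron of the gene. It holds CATCTG, 9 further bases and GATAA, at positions 88203185 to 88203204, and overlaps no exon. The Erg stretch, chr16:95459349-95459598 (minus strand), is the 250 bases before a start site inside the gene, in an intron of the longer transcripts, from the RefSeq promoter table. The Lmo2 stretch, chr2:103957736-103957985 (plus strand), is the 250 bases before the distal start sites of the gene.
Gata2 intron: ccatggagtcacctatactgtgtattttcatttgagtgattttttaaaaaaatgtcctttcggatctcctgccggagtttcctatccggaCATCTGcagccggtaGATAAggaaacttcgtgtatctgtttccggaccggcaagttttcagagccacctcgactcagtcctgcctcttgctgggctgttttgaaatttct
Erg internal promoter: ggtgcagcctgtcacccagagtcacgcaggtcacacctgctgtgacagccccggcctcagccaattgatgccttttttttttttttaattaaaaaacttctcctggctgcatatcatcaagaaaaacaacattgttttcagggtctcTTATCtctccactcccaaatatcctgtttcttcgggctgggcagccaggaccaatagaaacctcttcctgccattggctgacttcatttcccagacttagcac
Lmo2 distal region: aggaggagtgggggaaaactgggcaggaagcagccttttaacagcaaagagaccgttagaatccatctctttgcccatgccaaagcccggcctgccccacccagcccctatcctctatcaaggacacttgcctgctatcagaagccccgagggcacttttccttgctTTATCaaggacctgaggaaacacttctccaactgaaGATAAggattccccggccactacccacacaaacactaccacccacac
Among the 20 H3K27ac regions in the windows of the 6 genes, the Gata2 region was the one with an E-box-GATA composite, against 344 of all 16414 H3K27ac regions (2.10%). The composite sat at the edge of that region: 1 of 12 HSC libraries and 0 of 11 unstimulated BMDM libraries had an H3K27ac peak over it, and the nearest peak edge in HSC lay 0 to 213 bp away (median 101 bp). The Erg stretch holds 1 GATAA and the Lmo2 stretch holds 2, while 22.6% of 32851 promoters of 250 bases hold at least 1 and 4.28% at least 2. The ETS motif CNGGAAGT, read on both strands and present in 7.58% of those promoters, is in neither of these stretches. A match of letters is a description and not a bound site.

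For each gene a promoter was 1 kb to either side of any start site, and its percentile in a library was the share of protein-coding genes whose best promoter peak there had a lower −log10 p, with 0 for no peak. H3K27ac was present at the promoters of Gata2, Tal1, Lmo2, Lyl1 and Fli1 in 35 of 35 libraries and at that of Erg in 29 (12 of 12 HSC, 8 of 11 unstimulated and 9 of 12 stimulated BMDM). Tal1, Lmo2 and Fli1 stood highest, each with a median between 84.1 and 92.9 in every cell state. Lyl1 followed with medians of 68.6 to 73.8, then Gata2 (47.8 to 60.2) and Erg (35.2 to 47.3). The ranges of Tal1, Lmo2 and Fli1 overlapped in each cell state, as did those of Gata2 and Erg.

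**Figure D1:**
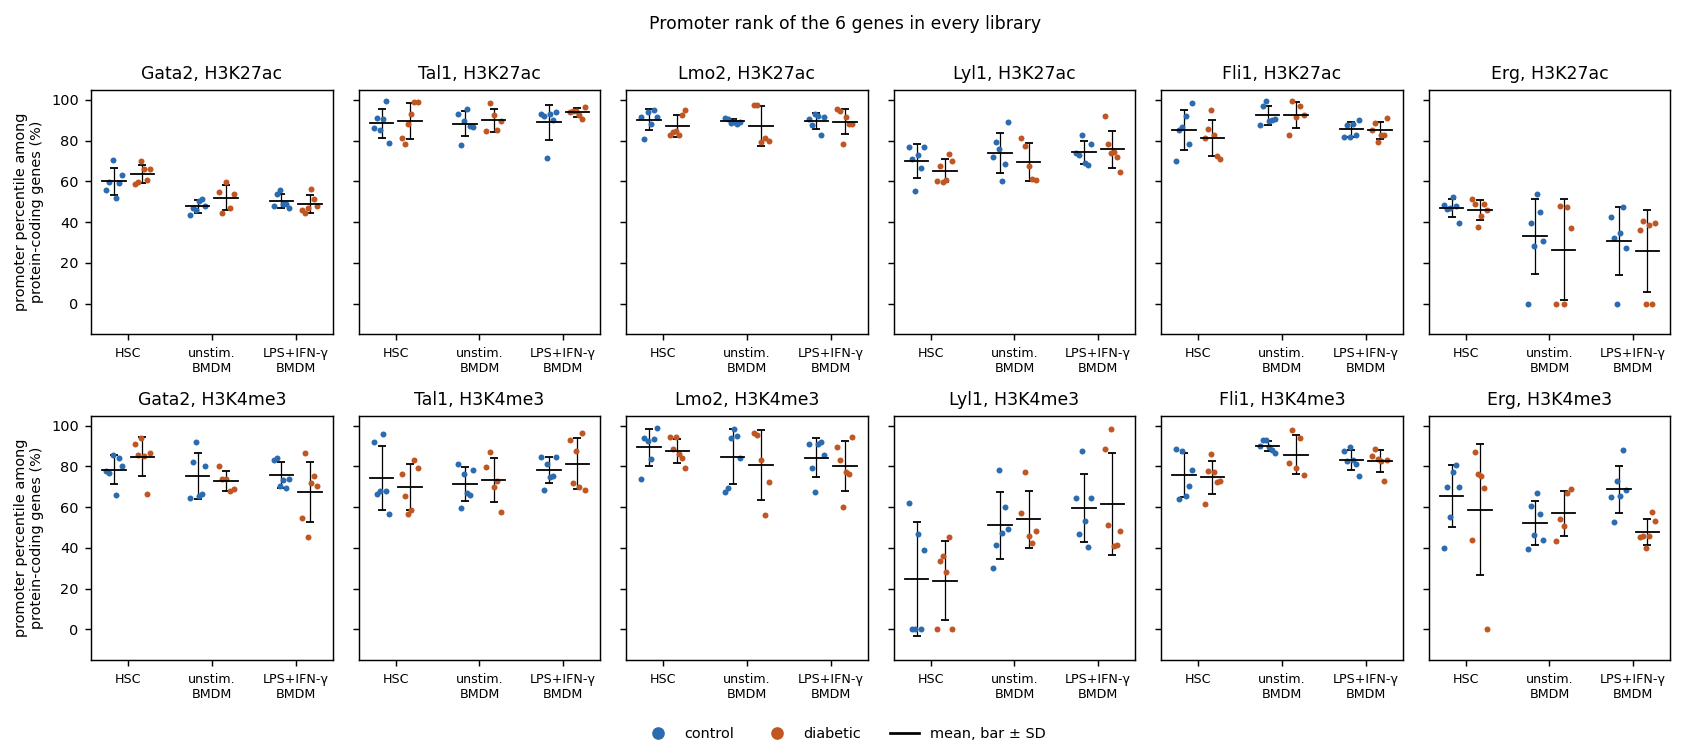
Promoter percentile (%) of the 6 genes in H3K27ac (top) and H3K4me3 (bottom), with 1 point per library, control and diabetic libraries apart in each cell state, and a line and bar at their mean ± SD. In H3K27ac the Gata2 points of HSC lie mostly above those of BMDM (medians 60.2 against 47.8 and 48.3), while those of Tal1 and Lmo2 overlap.

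HSC were then compared with unstimulated BMDM over both disease groups with limma, a linear model fitted to all genes at once. Of 16981 genes tested for H3K27ac at the promoter, 28.5% were called at an adjusted p under 0.05, 14.6% higher and 13.9% lower in HSC. Of the 6 genes, Gata2 was higher in HSC and Fli1 was lower, and the other 4 were not called. In covered length, the kb of the gene body with 20 kb flanks that lay under the 10000 strongest peaks of a list, 39.9% of 13555 genes were called, 32.7% higher in HSC, with a median shift over all genes of 0.20 (log2). Gata2, Tal1 and Lmo2 were called higher, Lyl1 and Fli1 were not called, and Erg had no such peak in any library and was not tested. For H3K4me3, Lyl1 and Fli1 were called lower at the promoter and none of the 6 was called in covered length, where 10.9% of 15074 genes were. Unadjusted p for H3K4me3 covered length was under 0.05 for Fli1 and Erg by limma and for neither by exact permutation.

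Gata2, a factor needed to maintain blood stem cells, spans chr6:88193891-88207032 on the plus strand. Its H3K27ac promoter percentile ran from 51.9 to 70.5 in HSC (median 60.2), from 43.3 to 59.4 in unstimulated BMDM (median 47.8) and from 44.3 to 56.1 in stimulated BMDM (median 48.3). The HSC values overlapped those of unstimulated BMDM in part and were higher by 11.95 ± 2.57 points (SE, adjusted p = 0.000522, 95% interval 6.75 to 17.2). Without the 3 control BMDM libraries that went against their labels the Gata2 difference was 12.5 points (adjusted p = 0.00100). All 23 BMDM libraries had 0 kb of the Gata2 window under a top peak. In HSC, 10 of 12 libraries had some, with 0, 5.39, 3.17, 0, 3.38 and 1.53 kb in the controls and 2.28, 4.16, 4.45, 2.83, 3.21 and 1.68 kb in the diabetic libraries. On the log2(kb + 0.5) scale the difference was 2.35 ± 0.27 (SE, adjusted p = 7.73e-08), and 2.35 without those 3 libraries (adjusted p = 1.20e-06). Gata2 passed the filter of 5 libraries with a top peak through HSC alone, so its call there had to go this way, and with all deposited peaks and no filter the difference was 0.91 (adjusted p = 0.0284, or 0.0484 without those 3 libraries). With all deposited peaks every BMDM library had some H3K27ac in the window, at 2.09 to 9.67 kb in unstimulated BMDM (median 6.17) against 4.22 to 15.5 kb in HSC (median 11.8), so the BMDM lists held Gata2 peaks below the strongest 10000.

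Within the Gata2 window, 3 H3K27ac regions were held by more HSC than unstimulated BMDM libraries by Fisher's exact test on top peaks, where 39.2% of 5324 testable regions were called (20.7% higher in HSC). They were chr6:88193420-88195046 over the first start site (7 of 12 against 0 of 11, adjusted p = 0.0163), chr6:88196034-88197784 (9 against 0, adjusted p = 0.00269) and chr6:88203181-88204326, the region with the composite (6 against 0, adjusted p = 0.0350). Each of these was held by 0 of 12 stimulated BMDM libraries. They were kept and could be tested through HSC alone, so a call had to go this way. These 3 and the Tal1 region described next were the 4 testable regions of the 20, and all 4 were called. Without the 2 libraries labelled control unstimulated BMDM that went against their labels, 2132 of 6010 testable regions were called over the genome. In the windows these were 3 of 3 testable for Gata2, 1 of 2 for Tal1 and 0 of 1 for Lyl1. By any deposited peak all 12 HSC libraries and 11, 9 and 11 of 11 unstimulated BMDM libraries held the Gata2 regions, in the order given, and none of the 3 was testable. The distal Lmo2 region chr2:103956801-103959836 (12 of 12 against 3 of 11) was testable and was called, as were 962 of 2007 testable regions (367 higher in HSC). No H3K4me3 region in the 6 windows was called, where 3.83% of 8581 testable regions were. Gata2 was marked by H3K4me3 in 35 of 35 libraries, with a median percentile of 84.6 in HSC and 73.8 in unstimulated BMDM and a difference of 7.50 points that was not called (adjusted p = 0.265).

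Tal1, a master regulator of blood formation, spans chr4:115056426-115071755 on the plus strand. Its promoter percentile ranged from 78.3 to 99.3 in HSC (median 89.2), 77.9 to 98.4 in unstimulated BMDM (median 89.4) and 71.7 to 96.7 in stimulated BMDM (median 92.9). HSC and unstimulated BMDM differed by −0.13 ± 2.70 points (SE, adjusted p = 0.980), with a 95% interval of −5.59 to 5.33. Tal1 differed in covered length. The window held 2.96 to 7.93 kb of top peaks in HSC (median 4.75) and 2.86 to 4.70 kb in unstimulated BMDM (median 3.61), ranges that overlap, and the difference was 0.45 ± 0.15 (SE, log2, adjusted p = 0.0158), or 0.46 without the 3 control BMDM libraries (adjusted p = 0.0303).

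An upstream region of Tal1, chr4:115052219-115053725, 4.2 to 2.7 kb before the first start site, was held by 12 of 12 HSC, 5 of 11 unstimulated BMDM (adjusted p = 0.0163) and 9 of 12 stimulated BMDM libraries. Relative to the total length of top peaks in each library, where 31.9% of genes were called and the median shift over all genes was 0.09, the Tal1 difference was 0.32 (adjusted p = 0.0493). A region farther downstream, chr4:115072979-115076514, was held by 0 of 12 HSC, 1 of 11 unstimulated and 5 of 12 stimulated BMDM libraries. H3K4me3 at the Tal1 promoter was present in 35 libraries, at a median percentile of 67.9 in HSC and 72.7 in unstimulated BMDM (difference −0.23 points, not called).

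Lyl1, the close relative of Tal1, has a single start site and spans chr8:84701457-84704715 on the plus strand. Its H3K27ac percentile was 55.3 to 77.0 in HSC (median 68.6), 59.9 to 88.9 in unstimulated BMDM (median 71.7) and 64.4 to 91.8 in stimulated BMDM (median 73.8). The difference of −4.22 ± 3.30 points (SE) was not called (adjusted p = 0.353). H3K4me3 at Lyl1 was uneven between libraries. A promoter peak was present in all 23 BMDM libraries and in 7 of 12 HSC libraries, which read 61.9, 0, 0, 47.1, 0 and 39.1 in the controls and 0, 33.5, 36.0, 28.3, 45.5 and 0 in the diabetic libraries. Unstimulated BMDM ran from 30.3 to 78.3 (median 48.3) and the ranges overlapped.

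The Lyl1 difference of −28.3 ± 7.76 points (SE, adjusted p = 0.0103) was called, as were 17.5% of 17255 genes (12.2% lower in HSC), with a median over all genes of −3.03. With list length as a covariate it was −14.2 points and was not called (adjusted p = 0.323), and 2.07% of genes were. Without the H3K4me3 libraries numbered as the 3 control BMDM libraries it was −27.4 points (adjusted p = 0.0314). Lyl1 lies among other genes, and all 5 H3K27ac regions in its window also touched promoters of Nacc1, Trmt1, Nfix or G430095P16Rik. Of these neighbours Nacc1 (10.5 points, adjusted p = 0.0111) and Trmt1 (10.5 points, adjusted p = 0.00632) were higher in HSC at the promoter. Covered length at Lyl1 differed by 0.28 (adjusted p = 0.253), and by 0.45 (adjusted p = 0.0426) once promoters of other genes were left out.

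Lmo2, the bridging subunit, spans chr2:103957986-103981878 on the plus strand and has distal start sites at its 5′ end and proximal ones 11.5 kb downstream. Over any start site its H3K27ac percentile was 80.8 to 95.2 in HSC (median 89.8), 79.3 to 97.7 in unstimulated BMDM (median 89.2) and 78.3 to 95.6 in stimulated BMDM (median 90.9), a difference of 0.28 ± 2.34 points (SE, adjusted p = 0.945). Start sites of a gene within 1 kb of each other were therefore grouped and each group was ranked as a promoter of its own. Among 30320 groups tested for H3K27ac, 23.9% were called and 11.2% were higher in HSC. At Gata2 the 2 downstream groups were called higher, 7.0 kb (41.1 points, adjusted p = 0.0119) and 10.6 kb (9.46 points, adjusted p = 0.00410) from the first start site, and in 35 of 35 fits that left out 1 library. The first start site (12.3 points, adjusted p = 0.250) was called in 0 of 35 and the one at 4.4 kb (17.4 points, adjusted p = 0.0789) in 2. Without the 3 control BMDM libraries the 2 called groups differed by 47.1 and 8.99 points (adjusted p = 0.00612 and 0.00941).

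The proximal Lmo2 group was marked in 35 of 35 libraries and differed by 0.13 points (adjusted p = 0.952). The distal group was marked in 12 of 12 HSC libraries, at 79.3, 70.5, 66.3, 77.8, 79.9 and 71.3 in controls and 75.3, 68.4, 71.1, 68.2, 72.5 and 82.7 in diabetic libraries. Among BMDM it was marked in 3 of 11 unstimulated libraries (67.2, 58.6 and 66.2, all control) and 3 of 12 stimulated libraries. The distal difference was 57.6 ± 10.6 points (SE, adjusted p = 0.000104), and it was called whichever single library was left out (54.4 to 61.1 points). Of all start-site groups of the 6 genes, 3 were called for H3K4me3 (Lyl1, the Fli1 reference site and the first Gata2 site), where 17.1% of 30038 groups were, and 0 with list length as a covariate. The Gata2 call lay at the threshold (adjusted p = 0.0498) and held in 10 of 35 fits that left out 1 library. H3K4me3 marked the distal Lmo2 group in 4 of 12 HSC and 1 of 11 unstimulated BMDM libraries.

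**Figure D2:**
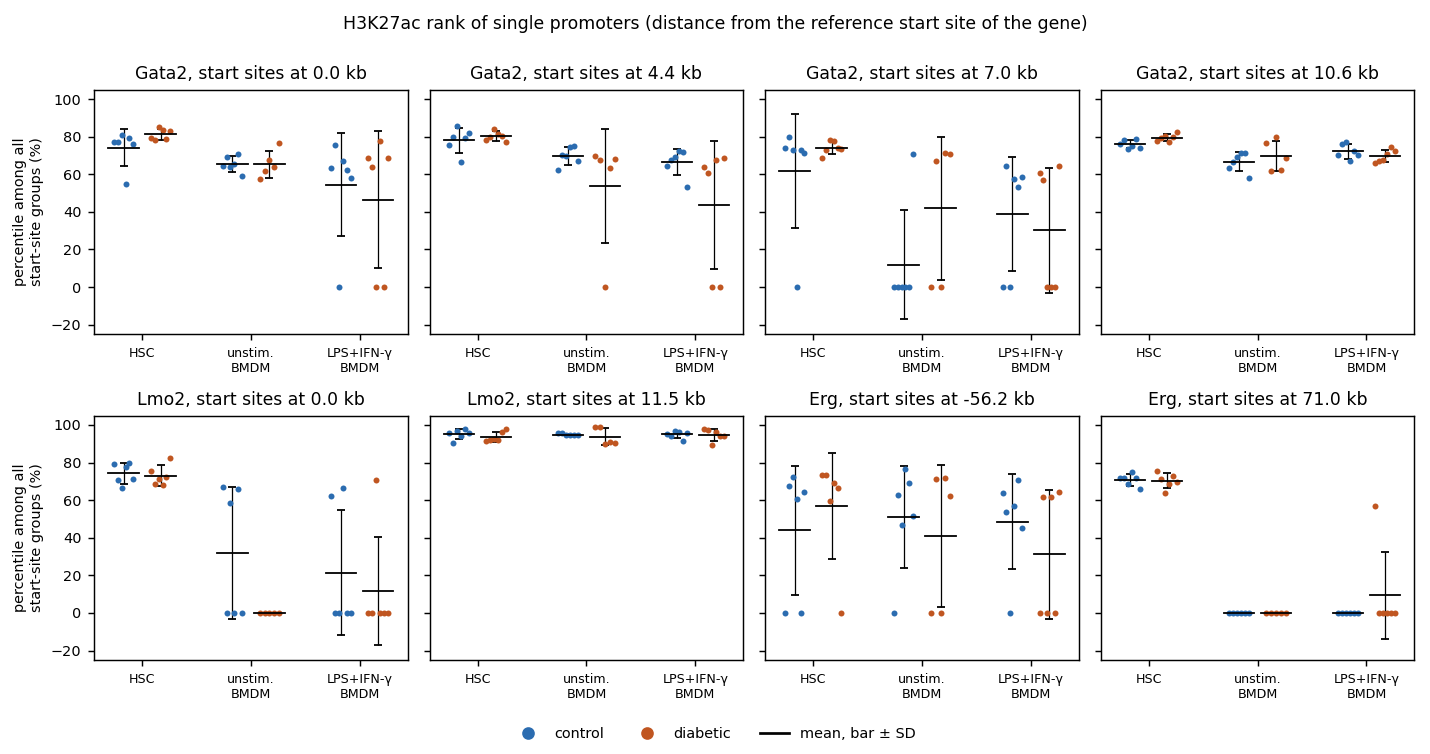
H3K27ac percentile (%) among start-site groups for single promoters of Gata2, Lmo2 and Erg, each named by its distance (kb) from the reference start site, with 1 point per control or diabetic library in each cell state and a line and bar at their mean ± SD. The distal Lmo2 group (0.0 kb) and the internal Erg group (71.0 kb) are marked in all 12 HSC libraries and in few or no BMDM libraries, while the proximal Lmo2 group (11.5 kb) is marked in all 35.

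H3K27ac at Lmo2 was also wider in HSC. With all deposited H3K27ac peaks its window held 7.71 to 14.4 kb in HSC (median 11.9), 1.92 to 8.23 kb in unstimulated BMDM (median 3.57) and 2.76 to 13.3 kb in stimulated BMDM (median 4.22). The HSC and unstimulated ranges met only between 7.71 and 8.23 kb, and the difference was 1.57 (log2, adjusted p = 5.80e-06), or 1.49 without the 3 control BMDM libraries that went against their labels (adjusted p = 7.96e-05). Under the 10000 strongest peaks it was 0.27 ± 0.098 (SE, adjusted p = 0.0308), and this call was lost relative to the total length of top peaks (0.14, adjusted p = 0.405) and without control HSC 1, control HSC 5, diabetic HSC 6 or diabetic unstimulated BMDM 5 (0.19 to 0.26, adjusted p = 0.0506 to 0.0647). It was also lost without those 3 control BMDM libraries (0.24, adjusted p = 0.0830).

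Fli1, an ETS factor of stem cells, megakaryocytes and endothelium, spans chr9:32422204-32542861 on the minus strand. Its H3K27ac percentile ran from 70.04 to 98.3 in HSC (median 84.1), from 82.6 to 99.3 in unstimulated BMDM (median 91.6) and from 79.4 to 91.0 in stimulated BMDM (median 84.2). HSC were lower than unstimulated BMDM by 9.24 points: the estimate was −9.24 ± 2.72 (SE, adjusted p = 0.00955, 95% interval −14.8 to −3.73), or −9.75 without the 3 control BMDM libraries (adjusted p = 0.0139). The values overlapped, since 3 HSC libraries read 92.0, 98.3 and 95.1 and the others between 70.04 and 86.8. Within control mice alone the difference was −7.23 points (adjusted p = 0.216) and within diabetic mice −11.3 points (adjusted p = 0.0505). H3K4me3 at Fli1 was lower as well (−12.8 ± 3.97 points, SE, adjusted p = 0.0222), which was not called with list length as a covariate (−9.63 points, adjusted p = 0.243) and was −13.4 points (adjusted p = 0.0377) without the 3 control BMDM libraries.

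The lower Fli1 signal was at the reference start site, chr9:32541595 (−4.55 points among start-site groups, adjusted p = 0.0115, or −4.79 and 0.0176 without the 3 control BMDM libraries). At the start site 1.3 kb upstream it was 5.34 points in the other direction and not called (adjusted p = 0.199). The broad Fli1 promoter region, chr9:32539844-32544673, was held by all 35 H3K27ac libraries. Covered length at Fli1 was 1.39 to 4.93 kb in HSC (median 2.02) and 1.26 to 7.48 kb in unstimulated BMDM (median 3.10) and was not called (−0.30, adjusted p = 0.321).

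Erg, the ETS factor closest to Fli1 and one required for stem cell maintenance, spans chr16:95359169-95586593 on the minus strand. Its promoters carried the weakest H3K27ac of the 6 genes, none among the 10000 strongest peaks. Over any start site the percentile was 37.6 to 52.5 in HSC (median 47.3), 0 to 53.8 in unstimulated BMDM (median 37.1) and 0 to 47.3 in stimulated BMDM (median 35.2). The difference of 16.6 ± 6.51 points (SE) lay at the threshold (adjusted p = 0.0519, or 17.8 points with adjusted p = 0.0559 without the 3 control BMDM libraries), and with promoters of 0.5 kb to either side it was 39.0 ± 5.71 points (SE, adjusted p = 4.06e-06), where 27.7% of genes were called, or 37.4 points without those 3 libraries (adjusted p = 5.07e-05).

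Separate Erg start sites behaved differently. The reference start site, chr16:95530365, had no peak of either mark in any library. The one 56.2 kb upstream was marked by H3K27ac in 9 of 12 HSC and 8 of 11 unstimulated BMDM libraries (difference 4.47 points, adjusted p = 0.829). The internal group, chr16:95459245-95459348, 71.0 kb downstream of the reference start and next to the stretch printed above, was marked in 12 of 12 HSC, 0 of 11 unstimulated BMDM and 1 of 12 stimulated BMDM libraries. Its values in HSC were 72.0, 71.6, 68.8, 75.2, 72.0 and 66.0 in controls and 75.3, 71.0, 63.8, 68.6, 73.0 and 69.9 in diabetic libraries, and the groups did not overlap. All HSC libraries lay above all unstimulated BMDM libraries in 0.91% of groups tested. The difference was 70.6 ± 6.73 points (SE, adjusted p = 4.39e-10), and 70.1 to 71.2 with any single library left out. This group passed the filter of 5 libraries with a peak through HSC alone, so its direction was set by the filter, and with no filter the adjusted p was 1.08e-11. Without the 3 control BMDM libraries that went against their labels, the internal Erg difference was 70.6 points (adjusted p = 1.50e-08) and the distal Lmo2 difference 57.9 points (adjusted p = 0.000211). H3K4me3 at the internal Erg group did not follow: 5 of 12 HSC, 6 of 11 unstimulated and 6 of 12 stimulated BMDM libraries had a peak (−4.42 points, adjusted p = 0.821).

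The weak Erg signal was wide. With all deposited H3K27ac peaks the Erg window held 19.5, 28.7, 23.8, 26.3, 11.7 and 28.2 kb in control HSC and 10.2, 26.1, 12.5, 14.0, 10.3 and 3.32 kb in diabetic HSC. It held 0.556 to 9.10 kb in unstimulated BMDM (median 3.81) and 0 to 5.95 kb in stimulated BMDM (median 2.82), so that 11 of 12 HSC libraries lay above every BMDM library. The difference between HSC and unstimulated BMDM was 2.12 ± 0.36 (SE, log2, adjusted p = 9.03e-05), where 25.6% of 21938 genes were called and 11.2% were higher, and 2.05 with list length as a covariate (adjusted p = 1.14e-10). Without the 3 control BMDM libraries it was 1.98 (adjusted p = 0.000409).

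To place this signal, each window was cut into bins of 1 kb, and libraries with any deposited H3K27ac peak in a bin were compared by Fisher's exact test. Of 245260 testable bins 11% were called, 5.01% higher in HSC and 5.96% higher in unstimulated BMDM. In the 6 windows 47 bins were higher in HSC and 3 were higher in unstimulated BMDM. Erg had 28 of the 47, in 74 testable bins. Of the 28, 26 lay 64.9 to 117 kb downstream of the reference start, around and beyond the internal start sites. At 3 of these, centred 78.9, 79.9 and 90.9 kb downstream, 12 of 12 HSC and 0 of 11 unstimulated BMDM libraries had a peak (adjusted p = 0.000342). Of the 26, 20 were held by 0 unstimulated BMDM libraries and could be tested through HSC alone. The call of such a bin, here or in another window, had to be higher in HSC. That of a bin held by 0 HSC libraries had to be higher in unstimulated BMDM. Neighbouring bins can lie under the same peak and are not independent. Stimulated BMDM held the 26 Erg bins in 0 to 7 of 12 libraries. Lmo2 had 12 of 29 testable bins, 6 of them 16.5 to 9.5 kb upstream and 6 around the distal start sites. The 6 upstream bins were held by 2 to 10 of 12 stimulated BMDM libraries, and the 6 around the distal start by 0 to 3. Tal1 had 3 of 14 testable bins, centred −7926, −926 and 4074 bp from its first start site. Gata2 had 2 of 21, Lyl1 1 of 16 and Fli1 1 of 57. Without the 2 libraries labelled control unstimulated BMDM that went against their labels, 4.2% of bins were higher in HSC. These were 24 of 74 testable bins for Erg, 13 of 29 for Lmo2 and 2 of 15 for Tal1. Gata2 had 1 of 26, Lyl1 1 of 17 and Fli1 1 of 58. No H3K4me3 bin of these genes was higher in HSC, where 0.0147% of all bins were, and 9 were higher in unstimulated BMDM, where 10.8% were. Those 9 were 6 of 23 testable bins for Gata2, 1 of 17 for Lyl1, 1 of 26 for Fli1 and 1 of 25 for Erg. Tal1 had 0 of 13 and Lmo2 0 of 12. Without those 2 libraries 0 H3K4me3 bins were called, in these windows and over the genome.

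**Figure D3:**
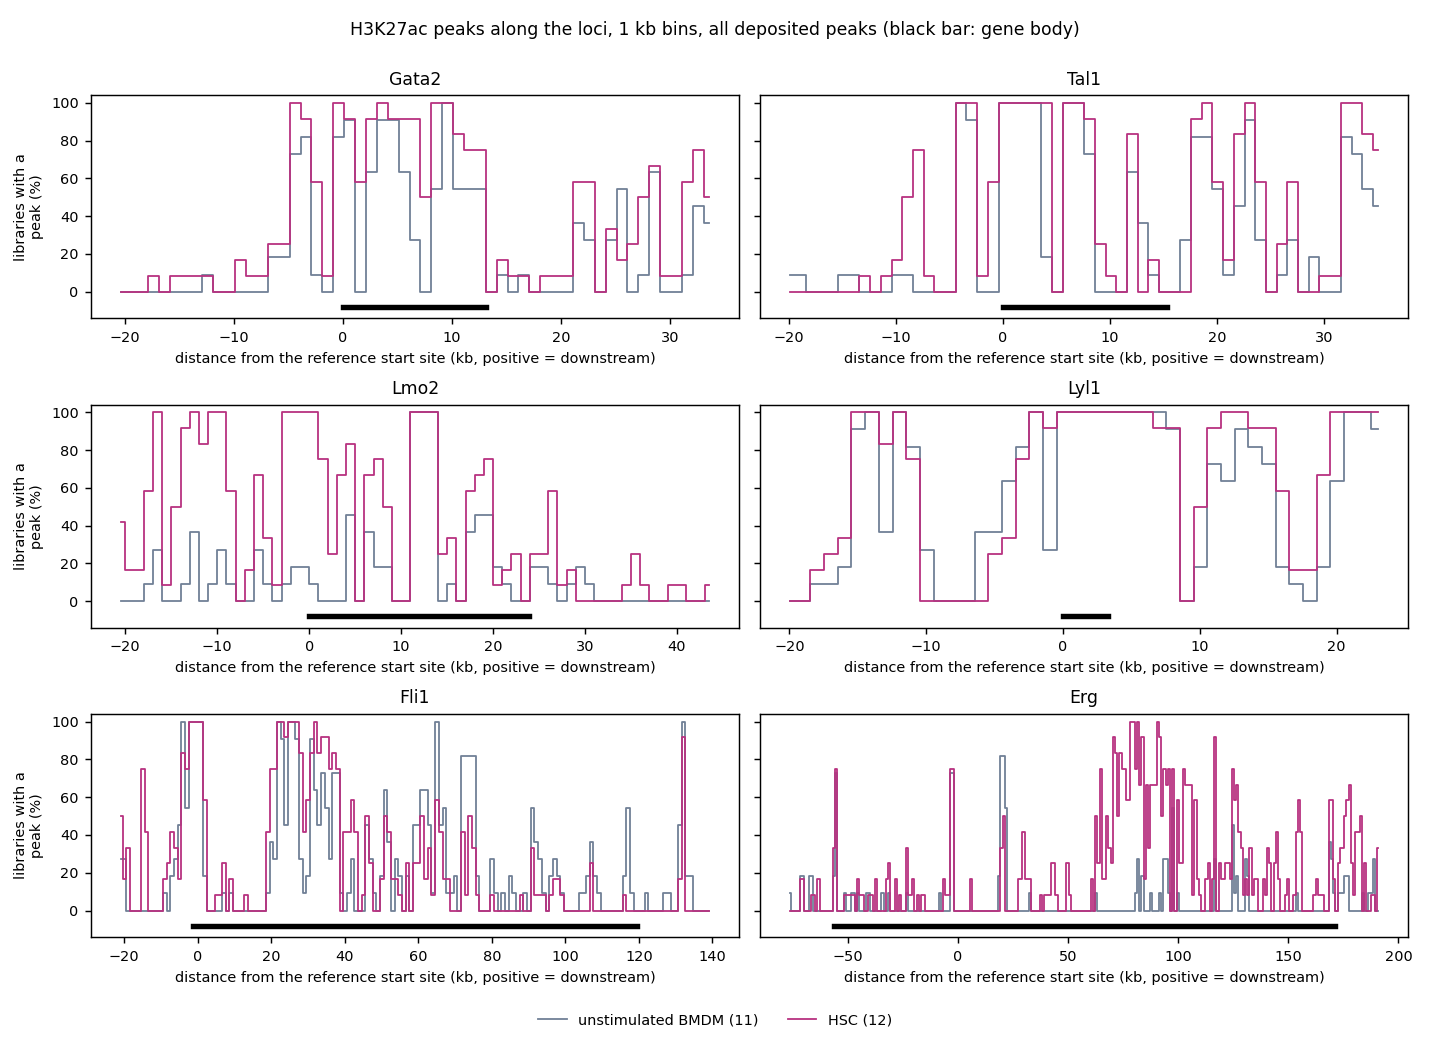
Share of libraries (%) with any deposited H3K27ac peak in each 1 kb bin, by distance (kb) from the reference start site along the transcript, for the 6 gene windows in HSC and unstimulated BMDM, with a black bar under the gene body. The HSC line stands mostly above the BMDM line over Erg between 64.9 and 117 kb and around and upstream of the distal Lmo2 start, and both lines reach the top over part of the Tal1 and Fli1 promoters.

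**Figure D4:**
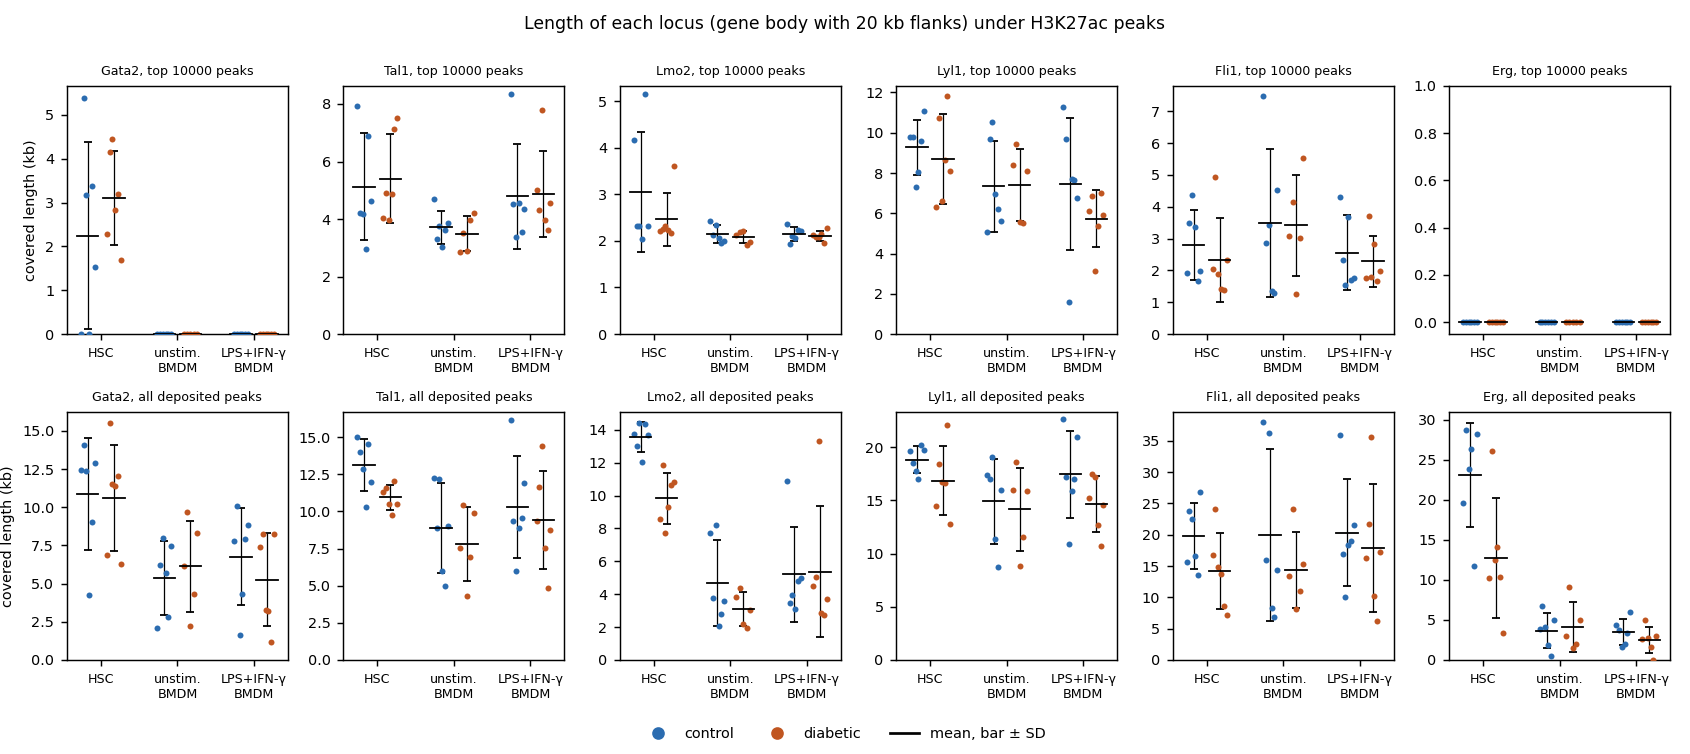
Covered length (kb) of each gene window under H3K27ac peaks, with the 10000 strongest peaks of each list (top) and all deposited peaks (bottom), 1 point per control or diabetic library in each cell state and a line and bar at their mean ± SD. Gata2 is at 0 kb under top peaks in all 23 BMDM libraries and reaches 5.39 kb in HSC, and Erg reaches 28.7 kb in HSC with all deposited peaks.

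The partners of these factors did not move in 1 direction. Of 19 other heptad and cofactor genes, 18 were tested for H3K27ac at the promoter and 12 were called, 6 higher and 6 lower in HSC. Of all genes 28.5% were called, 14.6% higher and 13.9% lower. The list median was 3.71 points against 0.42 for all genes. Runx1, the remaining heptad factor, was lower in HSC (−13.6 ± 2.10 points, SE, adjusted p = 4.90e-06), with a median percentile of 72.2 in HSC and 88.0 in unstimulated BMDM and a peak in every library. Lmo4, a LIM-only relative of Lmo2, was lower (−13.6 points, adjusted p = 4.12e-05), as was Hhex, a homeobox factor (−15.2 points, adjusted p = 0.000965). Gfi1b, a repressor of erythroid and megakaryocyte cells, was higher (25.2 points, adjusted p = 0.00187), as was Tcf12, an E protein that pairs with Tal1 (9.53 points, adjusted p = 0.00359). Among 16 tested relatives in the GATA, helix-loop-helix, LIM-only and ETS families, 5 were called, a share near the 28.5% of all genes. Gata1, the erythroid GATA factor, was higher in HSC (41.8 points, adjusted p = 6.88e-08) but passed the filter through HSC alone, with a peak in 12 of 12 HSC and 3 of 23 BMDM libraries, and Ets2 (−15.7 points), Lmo4, Tal2 (−25.6 points) and Elf4 (−10.3 points) were lower. Over these and the marker lists below, 30 of 65 tested genes were called, and 28 of the 30 kept their call and direction without the 3 control BMDM libraries, the exceptions being Tcf3 and Epor.

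Markers were read in H3K27ac at the promoter to check the labels, where 28.5% of all genes were called, 14.6% higher and 13.9% lower in HSC. Of 8 stem and progenitor genes 5 were higher in HSC, led by Myb (21.2 points, adjusted p = 1.49e-07), and none was lower. In H3K4me3, where 17.5% of all genes were called, 1 of the 8 was higher and none was lower. Of 6 tested macrophage genes 2 were lower, Cd68 (−21.9 points, adjusted p = 0.00188) and Csf1r (−20.0 points, adjusted p = 0.00365), although each had a peak in at least 10 of 12 HSC libraries. Of 4 erythroid genes all were called higher in HSC in H3K27ac, of which Gata1 and Alas2, an enzyme of heme synthesis, passed the filter through HSC alone, and their summed percentile was 159 to 255 in HSC, 105 to 148 in unstimulated BMDM and 72.4 to 157 in stimulated BMDM. Alas2 had a peak in 5 of 12 HSC and 0 of 11 unstimulated BMDM libraries. In H3K4me3 none of 3 tested was higher and Klf1 was lower (−15.3 points, adjusted p = 0.0293), with a median summed percentile of 132 in HSC and 158 in unstimulated BMDM. Summed H3K27ac percentiles of the 5 mast and basophil genes were 45.3 to 77.7 in HSC and 0 to 67.6 in unstimulated BMDM, with no peak at Cpa3, Fcer1a or Ms4a2 in any library of these groups. Hdc, which makes histamine, was higher in HSC at the promoter (23.1 points, adjusted p = 0.00499) and in covered length (0.58, adjusted p = 0.0234), and Tpsb2 was not called. In unstimulated BMDM the diabetic minus control difference in Hdc covered length was 0, the value of a gene with no top peak there. Such a gene can only be called higher in HSC, so the direction of the covered-length call carries no information. Of 5 megakaryocyte genes, Gp9 was higher (18.2 points) and Pf4 lower (−13.5 points). Of 4 tested endothelial genes, Kdr was lower (−15.1 points), and of 4 tested lymphoid genes none was called. The part of erythroid progenitors and of mast cells or basophils in the higher Gata2, Lmo2 and Erg signal of HSC was not tested.

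Diabetes was compared within each cell state. Both measures are relative to other genes or peaks of the same library, so a change of a mark over the whole genome would not show. The study reports more of both marks in diabetic HSC by Western blot, a total that these measures do not read. Over both marks and measures, 0 of 69 tests of the 6 genes were called by limma, also without the 3 control BMDM libraries. Unadjusted p was under 0.05 in 4 of them, and in 3 by the exact permutation test. Calls over all genes were rare as well: 0.00589% of genes for the H3K27ac promoter in HSC, 0.00738% for H3K27ac covered length in HSC and in stimulated BMDM, 0.0133% for H3K4me3 covered length in stimulated BMDM, and 0% in the other 8 comparisons. In HSC, the 95% interval of the diabetic minus control difference in H3K27ac percentile was −3.64 to 10.7 points for Gata2, −6.29 to 8.79 for Tal1 and −9.68 to 3.39 for Lmo2. It was −13.8 to 4.60 points for Lyl1, −11.4 to 3.85 for Fli1 and −19.2 to 17.2 for Erg, so differences of several points either way were not detectable for any of the 6.

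The smallest unadjusted limma p was for Erg H3K4me3 in stimulated BMDM. Its covered length under top peaks was 1.05, 0, 1.01, 1.21, 1.76 and 1.06 kb in control libraries and 0 kb in all 6 diabetic libraries (−1.47, log2, limma p = 0.00199, adjusted p = 0.474, two-sided exact permutation p = 0.0152). Erg promoter H3K4me3 was 68.8 ± 11.7 (SD, n = 6) in control and 47.9 ± 6.31 in diabetic stimulated BMDM (limma adjusted p = 1, exact permutation p = 0.00649). Lmo2 H3K4me3 covered length was 2.12 ± 0.243 kb (SD, n = 6) in control and 1.15 ± 0.752 kb (n = 5) in diabetic unstimulated BMDM (limma adjusted p = 0.856, exact permutation p = 0.00216, the smallest of the 69). Gata2 H3K27ac in HSC covered 2.24 ± 2.13 kb (SD, n = 6) in control and 3.10 ± 1.07 kb in diabetic libraries (limma adjusted p = 1, exact permutation p = 0.260).

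With all deposited peaks, Lmo2 H3K27ac covered 13.5 ± 0.909 kb in control and 9.83 ± 1.56 kb in diabetic HSC (SD, n = 6). Erg covered 23.0 ± 6.48 kb and 12.8 ± 7.51 kb. Neither was called (limma adjusted p = 0.694 for each), and the diabetic HSC lists were shorter (median 92674 against 130591 peaks). The difference between the disease effects in HSC and in unstimulated BMDM was called for none of the 6 genes (0 of 23 tests, and 0 at an unadjusted p under 0.05 by limma and by exact permutation).

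**Figure D5:**
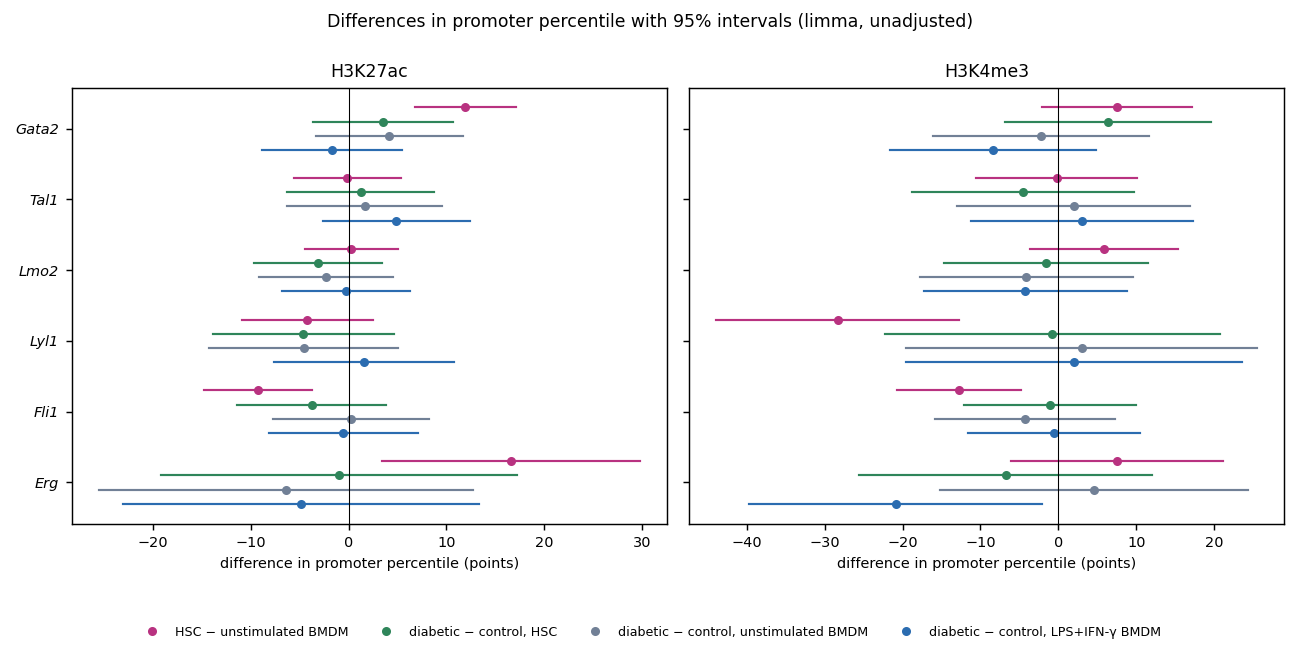
Differences in promoter percentile (points) of the 6 genes in H3K27ac and H3K4me3, between HSC and unstimulated BMDM and between diabetic and control libraries of each cell state, as limma estimates (points) with unadjusted 95% intervals (lines). Gata2 lies above 0 and Fli1 below 0 in the H3K27ac comparison of cell types, at 11.95 and −9.24 points, and each H3K27ac interval for diabetes spans 0.

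Stimulated and unstimulated BMDM were also compared. None of 23 tests of the 6 genes was called, where 1.93% of genes were called for H3K27ac at the promoter and 0.826% for covered length, and 2 had an unadjusted p under 0.05 by limma and 2 by exact permutation. Without the 3 control BMDM libraries, 2 of which bear the unstimulated and 1 the stimulated label, 5.49% and 2.78% of genes were called for these measures and again none of the 6. Fli1 H3K27ac was −7.29 points in stimulated against unstimulated BMDM (95% interval −12.8 to −1.77, adjusted p = 0.160), and Tal1 covered length was 0.34 higher (log2, adjusted p = 0.296).

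The genes whose H3K27ac promoter percentile was most like that of each factor over the 35 libraries were named by Pearson correlation, as a description over libraries that share cell states. For Gata2 these were Mier3 (0.88), Satb1 (0.85) and Smad5 (0.82), and for Erg they were Tjp1 (0.80), Abat (0.78) and Ddx25 (0.77). Lyl1 was most like Unc13d (0.81), Smpd1 (0.75) and Rad51d (0.74), and Fli1 most like Glb1 (0.80), Tmppe (0.80) and Dock1 (0.71). Tal1 and Lmo2 had weaker matches, Btg1 (0.64) and Slc46a3 (0.58) at most. Among the 6 factors themselves correlations ran from −0.47 (Gata2 and Lyl1) to 0.48 (Lmo2 and Lyl1).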

How the data were processed

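ChIP-seq peak lists of H3K27ac and H3K4me3 from 70 libraries were used, and 36 input samples were not analysed here. Each deposited list is named for 1 library and an input sample of the same cells and number, and how the input was used is not given in the sources used here. The deposited files give every peak a score, its fold enrichment (a ratio) and −log10 p and −log10 q. Lists stop near a q of 0.05. The submitters' processing notes name Bowtie2 2.2.6, MACS2 2.2.7.1, Picard 2.19.2 and bedtools 2.19.1 among others, and GRCm38. Read depth is unknown, so no counting interval is given.

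Overlapping summits of 1 interval were joined into 1 peak. Promoters and gene windows come from GENCODE M21, and 0 peaks ran past chromosome ends. Libraries were grouped as labelled by mark, cell state and disease. Genes with a peak in at least 5 of 35 libraries were fitted with limma 3.58.1 (R 4.3.3, eBayes with trend) on percentiles or on log2(kb + 0.5), with Benjamini-Hochberg adjustment over all genes tested. Regions merge the top 10000 peaks of 35 libraries, were kept when held by at least 2, and were tested, like bins, with two-sided Fisher's exact tests. Single values were also tested by two-sided exact permutation. The fits were tested on simulated data. Start-site groups, bins, unfiltered deposited peaks and the fits of these, of list genes and of 0.5 kb promoters without the 3 control BMDM libraries were added after seeing the data. The 6 genes and all lists were chosen with earlier results of these data known. Named list genes are at most 5 per list, those called with the smallest adjusted p, and like genes are the 3 with the highest correlation. Marker genes of 2 lists (1 each) are not reported here. The files hold no library column that was left unused (0). Same-numbered libraries of different groups were checked for pairing: their deviations from group means correlated with a median r of 0.01 to 0.04, with 17.6% to 28.2% of 85 pairs above 0.1. These pairs also join control with diabetic libraries, which cannot come from the same animal. The check therefore cannot decide whether numbers within a disease group name the same animal. Numbers were not used as pairs.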

Additional observations from a re-analysis of the deposited data

Results flagged for a closer look

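Dixon's criterion for a value far from the rest was applied to each gene and measure in groups of 5 or 6 libraries. Of 133 groups tested 12 had such a library, where chance gives about 1 in 20. Tal1 had 4. Its H3K27ac promoter percentile was 71.7 in control LPS+IFN-γ BMDM 3 (others 90.1 to 93.8), and its H3K27ac covered length was 8.36 kb in control LPS+IFN-γ BMDM 1 (others 3.36 to 4.56) and 7.78 kb in diabetic LPS+IFN-γ BMDM 3 (others 3.61 to 5.01). Its H3K4me3 covered length was 1.27 kb (1.265) in diabetic unstimulated BMDM 6 (others 2.45 to 2.92).

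Lmo2 had 4 as well. Diabetic HSC 6 had 3.60 kb of H3K27ac (others 2.17 to 2.31), and the H3K4me3 library of the same number had 0.67 kb (others 1.70 to 2.00). Lmo2 H3K4me3 covered 0.888 kb in control LPS+IFN-γ BMDM 3 (others 1.72 to 2.21) and 0 kb in diabetic LPS+IFN-γ BMDM 3 (others 1.56 to 2.05).

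For Fli1, H3K27ac covered 4.93 kb in diabetic HSC 2 (others 1.39 to 2.34), and the H3K4me3 promoter percentile was 72.8 in diabetic LPS+IFN-γ BMDM 5 (others 82.9 to 88.8). For Gata2, H3K4me3 covered 1.10 kb in control HSC 4 (others 3.20 to 4.39), and the H3K4me3 promoter percentile was 66.5 in diabetic HSC 5 (others 85.0 to 94.2).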

How the results depend on the processing

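Counts below are of the 6 genes called between HSC and unstimulated BMDM. The share of all genes called changed as well. For H3K4me3 promoters it was 17.5%, and 2.07% with list length as a covariate. For H3K27ac covered length it was 39.9%, and 25.6% with all deposited peaks and no filter. Shares are not given for every setting, so these counts describe the processing and do not set the 6 genes against all genes. For H3K27ac at promoters 2 were called, and 1 within control and 1 within diabetic mice. For H3K27ac covered length 3 were called, 5 with all deposited peaks and list length as a covariate, and 1 each with top peaks by fold, within control mice, within diabetic mice and at an adjusted p under 0.01. For H3K4me3 at promoters 2 were called, 1 with normal scores, a 2 kb window or a 0.5 kb window without the 3 control BMDM libraries, and 0 with list length as a covariate, ranked by fold, with the top 10000 peaks only, within control mice, within diabetic mice or at an adjusted p under 0.01. Leaving out 1 library gave 1 to 2, with Fli1 lost without diabetic unstimulated BMDM 2 (−11.2 points, adjusted p = 0.0554). For H3K4me3 covered length 0 were called, 4 with all deposited peaks (with or without the filter, and 2 without the filter and the 3 control BMDM libraries), and 1 each with the gene body only, the top 20000 peaks and top peaks by fold. The 4 H3K27ac regions higher in HSC became 1 by any deposited peak, where 962 of 2007 testable regions were called. Without 2 control BMDM libraries the bins higher in BMDM went from 3 to 1 (H3K27ac) and from 9 to 0 (H3K4me3). Over all bins they went from 14606 to 3299 and from 24415 to 0. The 3 H3K4me3 start-site groups called became 0 with list length as a covariate. Directions turned for H3K4me3 covered length of Tal1 with top peaks by fold (1.38, adjusted p = 0.0339) and of Erg with all deposited peaks (−0.89, adjusted p = 0.0131, or 0.0184 without a filter). The cause of these changes was not tested.

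Libraries of the same number were not treated as pairs. With a replicate block the counts were 3 and 3 for H3K27ac promoters and covered length and 2 and 0 for H3K4me3, and the added call was Erg (18.0 points, adjusted p = 0.0312). Erg also passed (adjusted p = 0.0276 to 0.0461) without any of 8 BMDM libraries. Among results of single genes 6305 kept their call or value, 458 moved, 30 lost and 36 gained a call, and 3 reversed.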
